A study of Mus musculus with 3 samples.

Results

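The RNase A family genes Rnase1, Rnase4, Rnase6, Rnase9, Rnase10, Rnase11, Rnase12, Rnase13 and Ang were examined by their symbols in a table of 24346 genes. All 9 were listed. The tissue was the IS-caput epididymis, the proximal end of the duct in which sperm leaving the testis mature. The mice were 14-week-old, of genotype Ovch2-/- and untreated, and formed 1 group of 3 libraries (replicates 1 to 3). The deleted gene is that of ovochymase 2, a secreted protease of the initial segment. All libraries were labelled with the same genotype and no wild-type tissue was analysed here, so no value is an effect of the deletion. Nothing in the labels assigns the libraries to separate mice, so the spread between them may be technical.

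Ribonucleases of the RNase A family are small secreted proteins held together by disulfide bonds, and the classical members cut single-stranded RNA. Rnase9, Rnase10, Rnase11, Rnase12 and Rnase13 are named non-active in the deposited table, because their proteins lack residues that catalysis needs. In the mouse these non-catalytic members are known mainly from the male tract. Mouse males without Rnase10 make sperm that lack ADAM3, a surface protein needed to pass from the uterus into the oviduct. OVCH2 is known to be needed for the same protein.

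Ovch2 had 4.50, 80.2 and 77.2 FPKM in the libraries labelled replicates 1, 2 and 3. The labels do not name the deleted part of the gene, so these levels check no genotype. Replicate 1 stood apart from the other libraries over the whole table. Pearson's r across 24346 genes on the log2(FPKM + 1) scale was 0.965 and 0.969 between it and replicates 2 and 3, and 0.989 between those. Totals lay between 729695 and 814000 FPKM. The absolute depth is unknown. The commonest ratio among values under 0.5 FPKM, matched within 0.02 on the log2 scale, gave replicate 1 a depth 1.22 times as great as replicate 2 and 1.40 times as great as replicate 3. A list of 17 initial segment genes that contained no ribonuclease summed to 2824, 36020 and 36129 FPKM in replicates 1, 2 and 3, and 16 of the 17 were lowest in replicate 1. The list includes Ovch2 and was chosen with earlier results of these data known. In a bulk tissue, fewer cells of a type and less RNA per cell cannot be told apart.

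All 9 genes lie on mm10 chromosome 14, between 51007751 and 51923277. Rnase10, Rnase9, Rnase11, Rnase12, Ang, Rnase4, Rnase6 and Rnase1 follow each other from the left, and Rnase13 lies 775 kb beyond Rnase1. Rnase10, Rnase4, Ang and Rnase6 are on the plus strand and the others on the minus strand. Ang (51091077 to 51102009) lies inside the span of Rnase4 (51091077 to 51106151), and RefSeq starts both at the same base. The stretches upstream of the RefSeq start are shown for Rnase10, Rnase9 and Rnase12, the 3 most abundant members by mean, which differed in pattern. They are also shown for the start that Rnase4 and Ang share. They are RefSeq GRCm38.p6 sequence on the strand of the gene, from up to 250 bases before the start, cut where GENCODE exons or the RefSeq gene span begin. That of Rnase12 lies inside the GENCODE span of the gene (51056698 to 51057661) and outside its exons. It is therefore not upstream of the whole gene in that annotation and can be intron. Those of Rnase13 and Rnase11 lie inside the RefSeq spans of these genes and are not shown, though their windows were kept in the motif counts below. Capitals mark matches on either strand to the PEA3 motif AGGAAG (bound by a group of ETS factors), to AGAACA (the hexamer of androgen response elements) or to the CCAAT box, and the first letters of a match that runs past the end.
Rnase10, chr14:51007501-51007750, plus strand: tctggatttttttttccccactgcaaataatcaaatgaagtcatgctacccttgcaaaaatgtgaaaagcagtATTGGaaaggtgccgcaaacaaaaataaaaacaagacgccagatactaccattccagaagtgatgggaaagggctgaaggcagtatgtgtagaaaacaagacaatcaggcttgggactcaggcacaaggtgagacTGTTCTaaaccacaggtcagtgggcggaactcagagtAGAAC
Rnase9, chr14:51041904-51042117, minus strand: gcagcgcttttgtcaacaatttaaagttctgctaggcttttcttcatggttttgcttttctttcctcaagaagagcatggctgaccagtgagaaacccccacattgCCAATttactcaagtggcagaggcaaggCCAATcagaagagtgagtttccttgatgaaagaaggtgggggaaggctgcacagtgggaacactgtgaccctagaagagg
Rnase12, chr14:51057259-51057492, minus strand: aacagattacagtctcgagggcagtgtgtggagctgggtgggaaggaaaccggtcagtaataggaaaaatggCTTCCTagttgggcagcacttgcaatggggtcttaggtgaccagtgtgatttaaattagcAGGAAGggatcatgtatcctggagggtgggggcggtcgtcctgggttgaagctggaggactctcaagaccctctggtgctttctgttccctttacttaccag
Rnase4 and Ang, chr14:51090827-51091076, plus strand: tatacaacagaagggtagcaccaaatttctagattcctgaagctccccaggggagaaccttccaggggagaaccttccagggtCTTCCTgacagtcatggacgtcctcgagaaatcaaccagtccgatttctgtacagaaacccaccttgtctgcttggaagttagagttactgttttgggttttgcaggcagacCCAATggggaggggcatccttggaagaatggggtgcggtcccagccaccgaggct

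Rnase10 and Rnase9, which lie 27.7 kb apart, were the most abundant members by mean and were lowest in different libraries. Rnase10 was measured at 2.58 FPKM in replicate 1 against 3077 FPKM in replicate 2 and 2708 FPKM in replicate 3. Thus it was near the floor of the family in replicate 1 and its most abundant gene in both other libraries. It ranked 10898th of 24346 genes in replicate 1, 30th in replicate 2 and 42nd in replicate 3. On the linear scale replicate 2 was 1192 times and replicate 3 was 1049 times replicate 1, and these last libraries differed by a ratio of 0.880. The mean was 1929 ± 1679 FPKM (SD, n = 3), and 2892 FPKM without replicate 1. Of 13073 genes averaging 1 FPKM or more, 10 had a wider range between libraries than Rnase10.

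Rnase9 encodes a secreted epididymal protein, also without the catalytic residues. It reached 2479 FPKM in replicate 1 and 1686 FPKM in replicate 3 but 364 FPKM in replicate 2, with a mean of 1510 ± 1069 FPKM (SD, n = 3). Replicate 2 was therefore the low library for Rnase9, where replicate 1 was for Rnase10. Replicate 1 was 6.82 times replicate 2 and 1.47 times replicate 3, and replicate 3 was 4.64 times replicate 2. Without replicate 2 the mean was 2082 FPKM. The ratio of Rnase10 to Rnase9, which no scaling between libraries can alter, was 0.00104, 8.46 and 1.61 in replicates 1, 2 and 3. The mean log2 ratio, of FPKM with nothing added, was -2.05 ± 6.91 (SD, n = 3) and 1.88 without replicate 1, so its sign rested on that library.

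Rnase13 and Rnase12 are the other abundant non-active members. Their roles are little known. Rnase13 was measured at 917, 303 and 458 FPKM in replicates 1, 2 and 3, a mean of 559 ± 319 FPKM (SD, n = 3). Like Rnase9 it was highest in replicate 1 and lowest in replicate 2. The ratio of replicate 1 to replicate 3 was 2.002 for Rnase13 and 1.47 for Rnase9. Rnase12 was steadier, at 829, 637 and 949 FPKM in replicates 1, 2 and 3, a mean of 805 ± 157 FPKM (SD, n = 3). Its ratio of highest to lowest library was 1.49. Rnase11, 0.995 kb from Rnase12 in RefSeq and on the same strand, was much lower, at 8.55, 11.5 and 13.0 FPKM in replicates 1, 2 and 3. Its mean of 11.0 ± 2.27 FPKM (SD, n = 3) also varied little, with a ratio of highest to lowest library of 1.52.

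**Figure D1:**
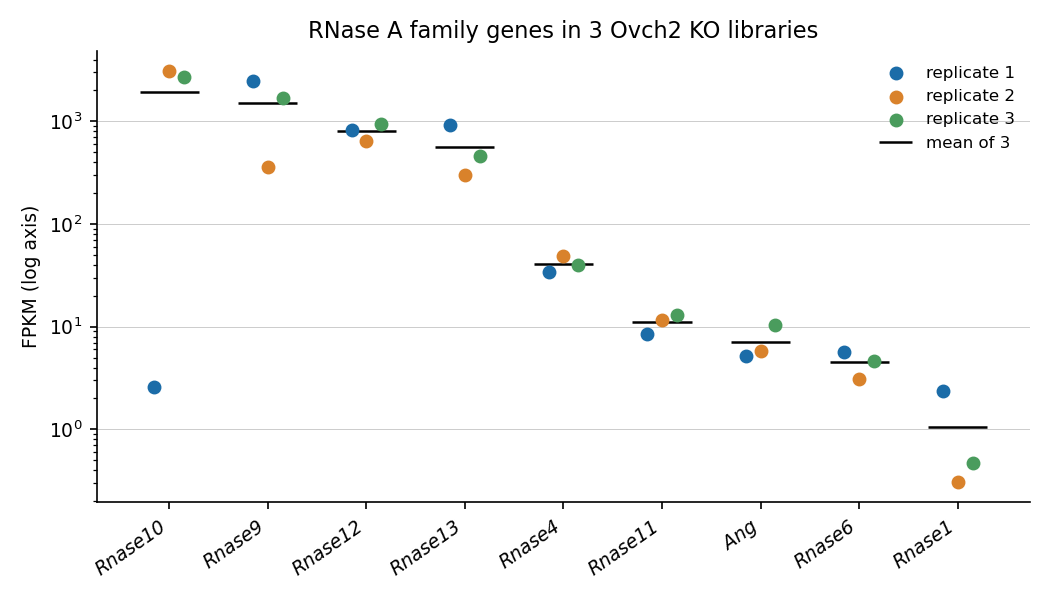
FPKM (log axis) of the 9 RNase A family genes in order of mean. Points are libraries and bars are means of 3. Rnase10 in replicate 1, at 2.58 FPKM, lies far below its other points, and the means of 4 genes, from 559 to 1929 FPKM, stand far above those of the other 5.

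The catalytic members were all minor transcripts. Rnase4, a ribonuclease that prefers uridine, was the highest of them at 34.2, 48.3 and 40.3 FPKM in replicates 1, 2 and 3, a mean of 40.9 ± 7.11 FPKM (SD, n = 3). Ang encodes angiogenin, which cleaves tRNA in stressed cells and drives the growth of vessels. It was measured at 5.14, 5.74 and 10.4 FPKM in replicates 1, 2 and 3, a mean of 7.09 ± 2.87 FPKM (SD, n = 3). Both genes were lowest in replicate 1, and Ang was highest in replicate 3 where Rnase4 was highest in replicate 2. The ratio of Rnase4 to Ang was 6.64, 8.42 and 3.88. Of the distinct stretches of 50 bases in the GENCODE transcripts, 7.75% of those of Rnase4 also occur in Ang, and 14.5% of those of Ang occur in Rnase4 or Ang2, so the division of reads between Rnase4 and Ang is uncertain. None of the stretches of the other 7 members occurs in another gene, in either direction, and no other gene overlaps them in GENCODE.

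Rnase6, an antimicrobial ribonuclease known from monocytes and macrophages, was measured at 5.72, 3.08 and 4.67 FPKM in replicates 1, 2 and 3, a mean of 4.49 ± 1.33 FPKM (SD, n = 3). The 9 macrophage markers summed to 159, 247 and 268 FPKM, and 8 of them were lowest in replicate 1, where Rnase6 was highest. Rnase1, the pancreatic-type ribonuclease that degrades extracellular RNA and is made by endothelium in several species, was the least abundant member. It had 2.36 FPKM in replicate 1 but 0.308 and 0.470 FPKM in replicates 2 and 3, a mean of 1.05 ± 1.14 FPKM (SD, n = 3) and of 0.389 FPKM without replicate 1. The 8 endothelial markers summed to 25.4, 64.9 and 43.0 FPKM and all 8 were lowest in replicate 1, the library in which Rnase1 was highest. The part of these cells in the results was not tested.

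In order of mean the members ran Rnase10, Rnase9, Rnase12, Rnase13, Rnase4, Rnase11, Ang, Rnase6 and Rnase1. The values of neighbours did not overlap between Rnase13 and Rnase4, between Rnase4 and Rnase11, or between Rnase6 and Rnase1. Those of the other 5 pairs of neighbours overlapped, so their order does not exceed the spread between libraries. Rnase11 nevertheless exceeded Ang in all 3 libraries.

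The summed level of the 9 members varied less than the members that differed most between libraries. It was 4283, 4450 and 5870 FPKM in replicates 1, 2 and 3, a mean of 4868 ± 872 FPKM (SD, n = 3), or 0.587%, 0.597% and 0.721% of each library's total. Its coefficient of variation was 17.9%, against 87.0% for Rnase10, 70.8% for Rnase9 and 57.0% for Rnase13, but 17.4% for Rnase4, 19.5% for Rnase12 and 20.6% for Rnase11. The 5 non-active genes made up 98.9%, 98.7% and 99.05% of that sum. The 4 catalytic genes together summed to 47.4, 57.5 and 55.9 FPKM. The make-up of the sum was different in every library. Rnase9 gave 57.9% of it in replicate 1, 8.17% in replicate 2 and 28.7% in replicate 3, whereas Rnase10 gave 0.0603%, 69.1% and 46.1%. The share of Rnase12 was 19.4%, 14.3% and 16.2%, and that of Rnase13 was 21.4%, 6.81% and 7.80%. FPKM is per length, so these shares compare molecules rather than fragments, as far as the annotated lengths are right.

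**Figure D2:**
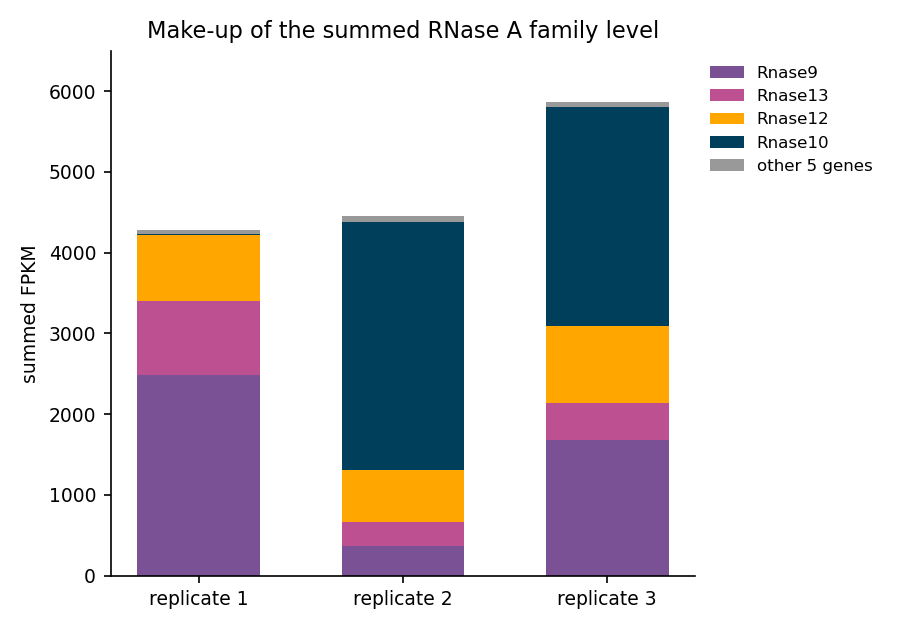
Summed FPKM of the 9 members in each library, split by gene. The total lies between 4283 and 5870 FPKM while Rnase10 (dark blue) is nearly missing from replicate 1 and Rnase9 (purple) is smallest in replicate 2.

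All 9 members had a mean of at least 1 FPKM, the level required for the call. Rnase1 barely reached it, and only through replicate 1, since its mean was 0.389 FPKM without that library. In replicate 1, Rnase10 alone among the members was 2-fold or more below each of the other libraries, on the FPKM + 1 scale, as were 532 of 13073 genes (4.07%). Rnase9 alone was so placed in replicate 2, as were 0.757% of genes. Rnase1 alone was 2-fold or more above each of the others in replicate 1, as were 1.29% of genes. The value that called it is the one that let it pass the filter. Rnase13 missed that call narrowly, since its ratio to replicate 3 was 2.002 before 1 was added to each value. No member was called above in replicate 2 (0.237% of genes), below in replicate 3 (0.153%) or above in replicate 3 (0.314%). In all, 3 of 9 members had a library apart from both others, against 6.56% of genes, and 4 of 9 (Rnase10, Rnase9, Rnase13 and Rnase1) had their highest and lowest libraries at least 2-fold apart, against 10.8% of genes. Rnase1 is in both counts, so each is raised by a gene that passed the filter through its high library. The median log2 range was 0.89 over the 9 members and 0.36 over all 13073 genes. With 9 genes chosen with results known, these are descriptions. The other 5 members had log2 ranges between 0.49 (Rnase4) and 0.89 (Ang).

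**Figure D3:**
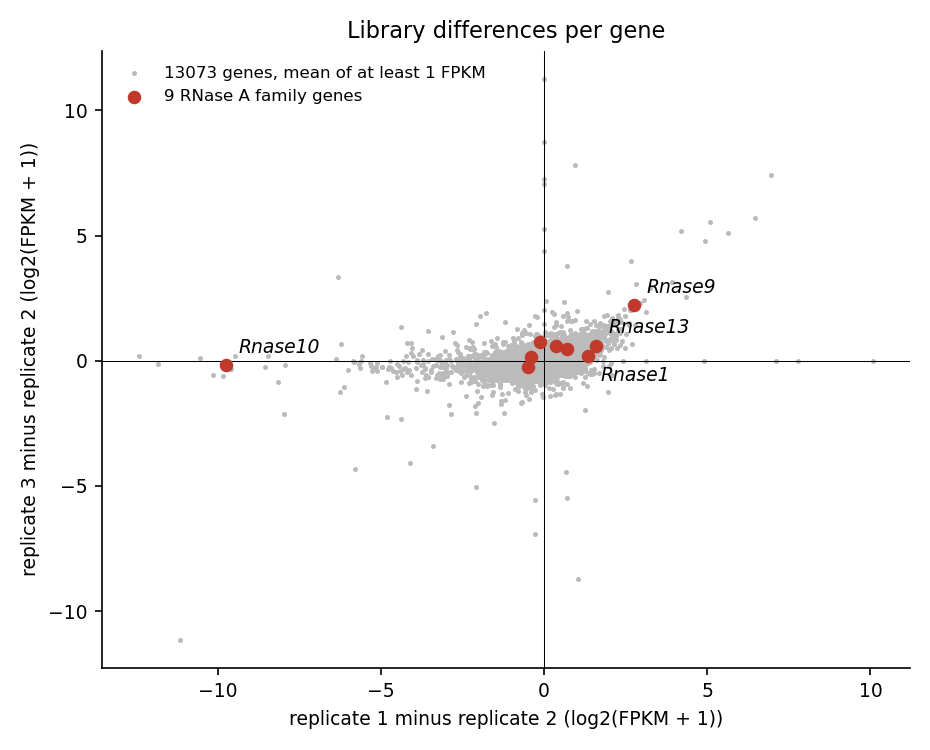
Each gene's difference of replicate 1 (x axis) and replicate 3 (y axis) from replicate 2, on the log2(FPKM + 1) scale. Grey points are 13073 genes averaging 1 FPKM or more and red points the 9 members, among which Rnase10 lies far to the left and Rnase9 to the upper right.

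The wider family was barely detected. Of 27 family symbols looked for, 24 were in the table, and 15 of those were not members. Of these 15, 11 were listed at 0 in every library and none had a mean of at least 1 FPKM. The highest was Ear2, an eosinophil-associated ribonuclease, at 1.12, 0.309 and 0.708 FPKM. Rnase2a was measured at 0.134 FPKM in replicate 1 and 0.374 FPKM in replicate 3 and was listed at 0 in replicate 2, and Rnase2b was measured at 0.117 FPKM in replicate 1 alone. Genes of this group have near-identical copies, and a listed 0 can be a failed estimate.

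Neighbours in the cluster differed in level and in pattern. Between the outermost members the table held 27 genes, of which 12 were not of the family. Of these, 4 had a mean of at least 1 FPKM. Eddm3b, an epididymal secretory protein gene between Rnase4 and Rnase6, was measured at 352, 215 and 159 FPKM in replicates 1, 2 and 3, above both its ribonuclease neighbours in every library. Beside Rnase13, Ndrg2 was at 138, 72.4 and 74.8 FPKM, Mettl17 at 16.4, 12.2 and 14.5 FPKM, and Tppp2 at 3.85, 6.76 and 7.95 FPKM. Rnase13 exceeded Tppp2, whose RefSeq span ends just to its left, in all 3 libraries. Deviations from the gene's own mean in replicate 1 were -6.44 for Rnase10, 1.11 for its neighbour Rnase9, -0.31 for Rnase11 and 0.06 for Rnase12 on the log2 scale.

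**Figure D4:**
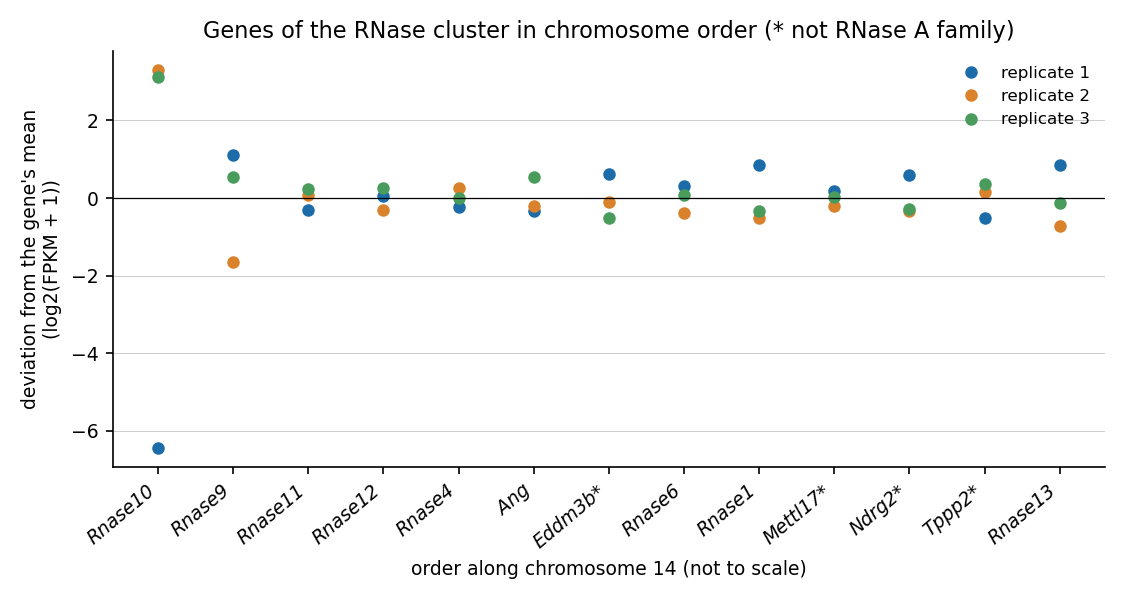
Deviation of each library from the gene's own mean of log2(FPKM + 1), for the 13 genes of the cluster averaging 1 FPKM or more, in their order on chromosome 14. Rnase10 at the left spans from -6.44 to 3.31, and Rnase9 beside it is low in replicate 2 at -1.66.

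Promoter windows of 300 bases, from 250 before to 50 after an annotated start, were found for all 9 members, 13 windows in all. They were searched on both strands for 6 motifs. These were the hexamer AGAACA and the palindromic androgen response element built from it, the ETS motif CCGGAAGT, the PEA3 motif AGGAAG, which shares letters with that of ETS, the TATA box TATAAA and the CCAAT box. Members have up to 3 windows each, Rnase4 and Ang share 1, and windows of a gene can overlap. AGAACA was found for 4 members (Rnase10, Rnase9, Rnase4 and Rnase6), in 6 of the 13 windows of all members, and for 21.3% of 27025 genes, in 19.0% of all 32851 windows. The window shown for Rnase10 holds it from -42 to -37 on the other strand and from -5 to 1 on the strand of the gene, this one across the start site. That of Rnase9 holds it at 25 to 30, beyond the stretch shown. AGGAAG was found for 6 members (Ang, Rnase10, Rnase11, Rnase12, Rnase4 and Rnase6) in 8 windows, and for 38.4% of genes, in 35.4% of all windows. For Rnase10 it lies in the window of the other annotated start, from -133 to -128. The matches of Rnase12 lie inside its GENCODE span, outside the exons. Exon bases were kept in these counts, for members and for all genes alike. The AGAACA sites of Rnase10 lie in both of its windows, which overlap, so they count again. For Rnase6, AGAACA and AGGAAG were found only in overlapping windows, so the same sites count again there too. Of the 250 upstream bases of these windows, 188 and 215 lie in exons of Rnase6. CCAAT was found for 7 members, in 9 windows, and for 41.1% of genes, in 37.4% of all windows, and it occurs both at -144 and at -116 in Rnase9. The ETS motif (3.89% of all windows), the TATA box (13.6%) and the palindromic element (0.00913%) were in none of the members' windows. Rnase13 held none of the 6 motifs. A match is a run of letters and was not tested as a binding site.

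The genes of nearest pattern differed for each member that varied. Likeness was measured over 3 libraries only, so it describes these libraries. To Rnase10 these were 9230104L09Rik (root mean square difference 0.08 on the log2 scale), Adam28 (0.13), Defb25 (0.16) and 9230110F15Rik (0.18). Adam28 encodes an ADAM protease and Defb25 a beta-defensin, and both were on the initial segment list. 9230104L09Rik, an uncharacterised gene, was measured at 6.31, 6745 and 6337 FPKM, and 9230110F15Rik was listed at 0 in replicate 1 against 908 FPKM in replicate 2 and 596 FPKM in replicate 3. Only 1 of 13073 genes came within 0.1 of Rnase10. The distance is not scaled by a gene's range, so such counts depend partly on the range. Rnase4, the member of narrowest range, had 1333 genes within 0.1, and Ang, of wider range, had 22.

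To Rnase9 the nearest were Defb30, a beta-defensin gene also on chromosome 14 (0.07), Gm15056 (0.07), Isg20 (0.07) and Gm6792 (0.08), and those 4 were the only genes within 0.1. Defb30 was measured at 1638, 236 and 1004 FPKM in replicates 1, 2 and 3. Isg20, an interferon-stimulated exonuclease that degrades single-stranded RNA, was at 148, 18.4 and 93.7 FPKM. Each was low in replicate 2, as Rnase9 was, which follows from how they were chosen.

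Around Rnase13 and Rnase1, whose ranges were narrower, more genes lay close. Within 0.1 of Rnase13 there were 44 genes, the nearest being Nxpe3, Slc34a2, Kcnj12 and Gal3st4. Slc34a2, a sodium-phosphate cotransporter gene, was measured at 25.0, 7.90 and 12.3 FPKM. Within 0.1 of Rnase1 there were 55 genes, the nearest being Wnk2, Slc26a3, Ddr1 and Foxi1. This likeness depends on the 1 added to each value, which shrinks the differences of a gene as low as Rnase1. On FPKM alone, replicate 1 was 7.65 times replicate 2 for Rnase1, but 2.53 times for Foxi1 and 3.02 times for Rnase13. Foxi1, the transcription factor of the clear and narrow cells that acidify the lumen, was measured at 84.4, 33.4 and 37.3 FPKM. Its list of 8 clear and narrow cell genes summed to 216, 124 and 116 FPKM, and 7 of the 8 were highest in replicate 1, as Rnase1 was. So were all 5 smooth muscle markers, and Rnase9, Rnase13 and Rnase6. The part of clear and narrow cells in the Rnase1 result was not tested. Among the members themselves, the closest pairs were Rnase1 with Rnase13 (0.17), Rnase4 with Rnase11 (0.18) and Rnase6 with Rnase12 (0.19), and the farthest was Rnase9 with Rnase10 (5.42). Every pair with Rnase10 lay between 4.33 and 5.42.

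**Figure D5:**
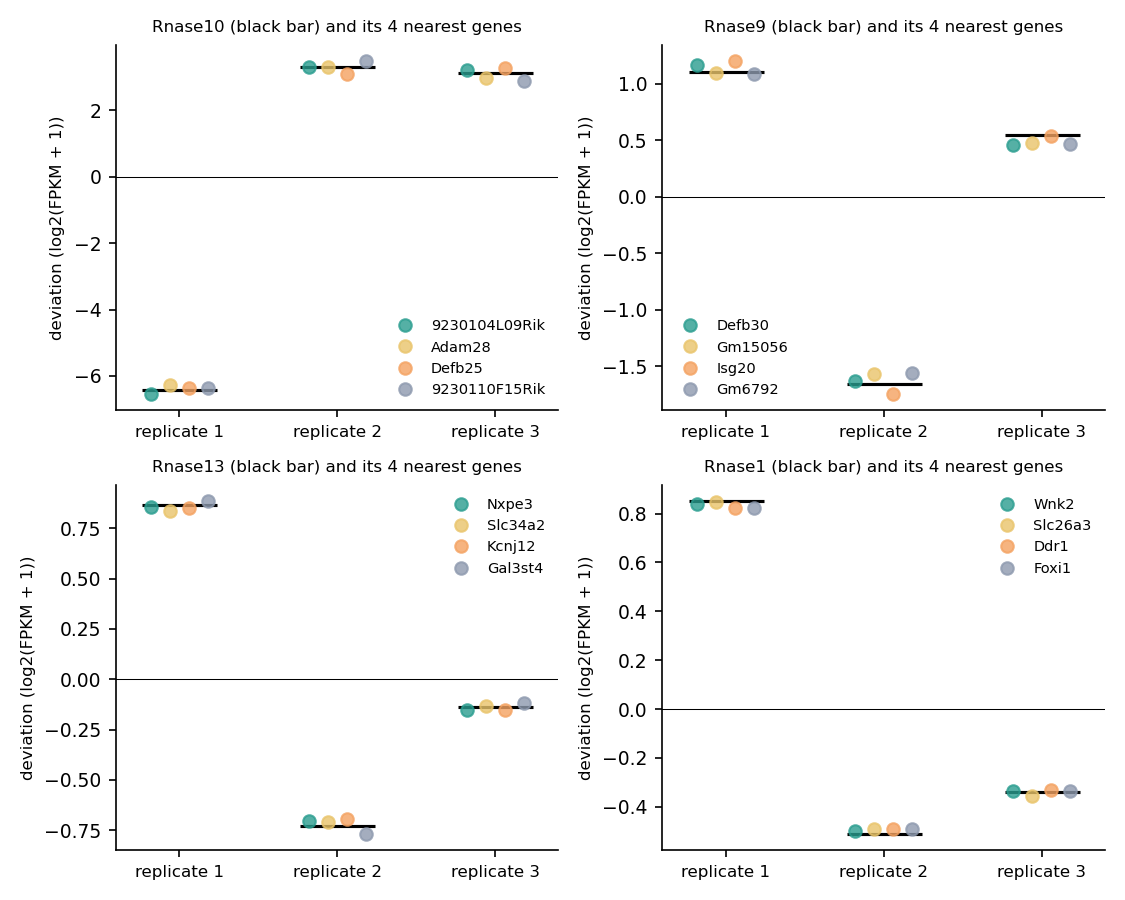
Deviation from the gene's own mean of log2(FPKM + 1) in each library for Rnase10, Rnase9, Rnase13 and Rnase1 (black bars) and the 4 genes nearest to each in pattern (points). Axes differ between panels: Rnase10 runs from -6.44 to 3.31, Rnase1 from -0.51 to 0.85.

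Gene lists of the tissue moved between the same libraries. In replicate 1, 14 of the 17 initial segment genes were 2-fold or more below each of the other libraries, as Rnase10 was, and Ggt1 was 2-fold or more above them. Of the 16 ERK and ETS genes, whose pathway drives the initial segment program, 13 were lowest in replicate 1, Fosl1 was listed at 0 both there and in replicate 3, and the sum was 236, 625 and 520 FPKM. Of these genes 5 (Etv1, Etv4, Etv5, Dusp6 and Spry4) are on the initial segment list too, so the lists are not separate observations. Etv5, an ETS factor gene, was at 1.94, 188 and 144 FPKM there, and the kinase gene Map2k2 at 60.5, 62.5 and 66.6 FPKM. The 14 caput genes summed to 68251, 86536 and 90979 FPKM, with Gpx5 highest and Crisp4 lowest in mean, and 4 were at least 2-fold below both others in replicate 1, as Rnase10 was. Of these, Lcn8 had 8.58, 14252 and 15342 FPKM, and Lcn9 had 0, 5415 and 6106 FPKM. Lcn10 had 49.1, 1898 and 1513 FPKM, and Crisp1 had 2.07, 758 and 171 FPKM. The lowest library was replicate 1 for 9 of the caput genes, replicate 2 for 4 and replicate 3 for 1. Lcn5, a lipocalin gene among the 4 lowest in replicate 2, had 21673, 4290 and 13581 FPKM, a low library shared with Rnase9. Spag11a, a beta-defensin-like gene also lowest in replicate 2, had 2419, 586 and 1579 FPKM. The part of any region's share of the tissue in the Rnase10 and Rnase9 results was not tested.

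Markers of other cells also differed. Germ cell markers summed to 2.67, 191 and 258 FPKM, all 10 were lowest in replicate 1, and 7 were listed at 0 there (Prm1, Prm2, Tnp2, Odf1, Akap4, Smcp and Ldhc). Smooth muscle markers summed to 673, 440 and 397 FPKM and all 5 were highest in replicate 1. Basal cell markers summed to 175, 139 and 160 FPKM, fibroblast markers to 172, 218 and 196 FPKM, and multiciliated efferent duct markers to 30.4, 24.2 and 28.3 FPKM. Red blood cell genes summed to 9.46, 32.1 and 121 FPKM, nearly all of it Hba-a1. Their part in the ribonuclease results was not tested.

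Rnh1, which encodes the cytosolic inhibitor that binds classical RNase A proteins, was measured at 189, 171 and 180 FPKM in replicates 1, 2 and 3, a mean of 180 ± 9.06 FPKM (SD, n = 3). It stood above the summed 4 catalytic members in every library. Over the 9 genes of the inhibitor and of unrelated ribonucleases the sum was 782, 622 and 700 FPKM, with 1 gene at least 2-fold above both others in replicate 1 (Rnaseh2c, a subunit of RNase H2, at 141, 48.6 and 56.6 FPKM) and 1 in replicate 3 (Rnaset2a, at 0.0467, 0.00750 and 4.24 FPKM). Rnaset2a has a near-identical copy, Rnaset2b, at 28.5, 18.0 and 20.7 FPKM, so its own level is uncertain. The 17 ADAM3 maturation genes summed to 617, 692 and 769 FPKM. Most of this sum was Ace, highest in replicate 1, and Tpst2, lowest there at 128 FPKM against 424 and 433 FPKM. A mean under 1 FPKM was found for 11 of the 17, so the sum says little of them. In replicate 1, 12 of the 17 were lowest and 2 (Tpst2 and Ovch2, both also on the initial segment list, as is Ros1) were at least 2-fold below both others. Of those 12 lowest in replicate 1, 9 had a mean under 1 FPKM and some were listed at 0, so that count rests mostly on genes near the floor. Rnase10 was 0.573 times the level of Ovch2 in replicate 1, 38.3 times in replicate 2 and 35.1 times in replicate 3. Ace, another ADAM3 factor, was highest in replicate 1 at 454 FPKM, against 140 and 215 FPKM in replicates 2 and 3.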

How the data were processed

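RNA was measured in 3 libraries of 1 group, Ovch2 KO. TRIzol was used for extraction and a TruSeq stranded mRNA kit, which keeps polyadenylated RNA, for the libraries, per the labels' protocols. The deposited table holds FPKM (fragments scaled by transcript length and library size), which the authors normalized, per the file headers. The scaling used, the annotation and the strand setting were not given in the sources used here. The submitters' processing notes name mm10, TopHat2 2.1.1 and Cufflinks 2.2.1. FPKM are not counts, so no count model was used, and with 1 group no test between groups was made.

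From the FPKM, means, SDs, shares and ratios were computed. Logarithms are log2(FPKM + 1), a scale that understates changes of low genes, except the log2 ratio of Rnase10 to Rnase9, taken on FPKM alone. A library was called apart where it lay at least 2-fold below, or above, each of the others on the FPKM + 1 scale, and the same call over all genes averaging 1 FPKM or more gave the background. Likeness of pattern is the root mean square difference between the deviations of a pair of genes from their own means. Positions, promoters and, for 24260 of 24346 genes, gene IDs were matched to RefSeq GRCm38.p6, which has the mm10 coordinates. Transcripts of GENCODE vM21 gave the stretches of 50 bases that genes share.

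The genes named were the 9 members, other family genes averaging 1 FPKM or more (there were none), the 4 genes of nearest pattern to each member that varied at least 2-fold, the expressed genes of the cluster, and examples of 14 gene lists. Ear2, Rnase2a, Rnase2b and several of the list examples fall outside that rule and were chosen after their values were seen. The members and lists were chosen with earlier results of these data known. Alternatives were leaving out each library, median-of-ratios scaling, equal totals, a pseudocount of 0.1, no filter, a 4-fold call and, for likeness, a mean of at least 5 FPKM. Software was numpy 2.4.6, pandas 2.3.3 and matplotlib 3.10.9 under Python 3.11.15.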

Additional observations from a re-analysis of the deposited data

How the results depend on the processing

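Means of the 9 members moved by less than 1 SD under both other scalings. Leaving out 1 of 3 libraries cannot move a mean by 1 SD, so for that choice values are given instead: without replicate 1 the mean was 2892 FPKM for Rnase10 and 0.389 FPKM for Rnase1, and without replicate 2 it was 2082 FPKM for Rnase9. With 1 library left out, the mean log2 ratio of Rnase10 to Rnase9 ran from -4.61 to 1.88, the last without replicate 1 and of opposite sign; scaling does not enter it. Members at least 2-fold above the others in replicate 1 numbered 1 (Rnase1), but 2 (Rnase1 and Rnase13) with median-of-ratios scaling, with equal totals or with a pseudocount of 0.1, and 0 with a 4-fold call. With a library left out only 1 other remains to compare with. The number above in replicate 1 was then 1 to 3, below in replicate 2 it was 1 to 3, above in replicate 2 it was 0 to 1, below in replicate 3 it was 0 to 1, and above in replicate 3 it was 1 in each case. Rnase10 was the member below in replicate 1 under each alternative run. Log2 ranges narrowed where a library at either end was left out. Without replicate 1 the range was 0.18 for Rnase10, 0.59 for Rnase13, 0.17 for Rnase1 and 0.16 for Rnase11. Without replicate 2 it was 0.56 for Rnase9, 0.23 for Rnase4, 0.25 for Rnase6 and 0.20 for Rnase12, and without replicate 3 it was 0.13 for Ang. That of Rnase1 was 2.59 with a pseudocount of 0.1. Of the 4 genes nearest to Rnase13, 2 were kept with a mean of at least 5 FPKM. No paired analysis was possible because there was 1 group. Depth limits Rnase1 and the other low genes, for which no counts are at hand.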

Other observations

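Chosen after their values were seen, the genes left of Rnase10 are given here. Pnp2 and Pnp, which encode purine nucleoside phosphorylases that break down nucleosides, lie 43.0 kb and 54.3 kb from it. Pnp was measured at 13.4, 45.0 and 47.2 FPKM in replicates 1, 2 and 3, and Pnp2 at 0.505, 5.69 and 6.96 FPKM. Both were lowest in replicate 1, as Rnase10 was, and the division of reads between these copies is uncertain. The next genes to the left, Tmem55b, Apex1 and Osgep, had log2 ranges of 0.01, 0.27 and 0.19. No test was made of these values.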
